A study of Mus musculus with 24 samples.

Results

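The 34 genes described here code for proteins of fatty acid oxidation in mitochondria and peroxisomes. They were chosen by name and make up 34 of the 28450 features in the deposited table. By step, 8 act in uptake and the carnitine shuttle, 14 in mitochondrial oxidation and 12 in peroxisomal oxidation, with Eci2 of the last set also working in mitochondria. RNA of whole kidney was sequenced from C57BL/6 mice in 4 groups of 6 libraries each, 24 in all: wild type given saline, wild type given glyoxylate acid (Gly, 75 mg/kg per day), NLPR3-/- given saline and NLPR3-/- given Gly. NLPR3 is the labels' spelling of Nlrp3, the inflammasome sensor, and these mice are called knockout below. Each dose was 200 µl into the peritoneum on days 1 to 7, and kidneys were taken after that course. Glyoxylate is a precursor of oxalate and is used to give calcium oxalate deposits in the kidney. The labels do not say how the knockout allele was made, and they give neither age nor sex.

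Long-chain fatty acids enter the cell, are joined to coenzyme A, and are handed to carnitine so that they can cross the inner mitochondrial membrane. In the matrix, rounds of oxidation, hydration, oxidation and cleavage then shorten the chain by acetyl-CoA units, while peroxisomes run a parallel pathway for very long, branched and dicarboxylic chains. Proximal tubule cells of the kidney depend on this pathway for energy, and the nuclear receptor PPARα, coded by Ppara, is known to induce many of its genes.

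The values are FPKM, which scale fragments by transcript length and by mapped fragments, as deposited by the authors. Their sums ran from 439749 to 539018 per library, and the sequencing depth behind them is unknown. Nlrp3 itself stayed under 1 FPKM in every library. It lay at 0.361 to 0.896 FPKM in Gly wild type and at 0.119 to 0.144 in Gly knockout, while the saline groups overlapped (0.0397 to 0.0886 in wild type, 0 to 0.182 in knockout). Saline knockout libraries 1, 2, 3, 5 and 6 lacked 4 Y-linked transcripts (none above 0.0503 FPKM), which were present in library 4 of that group and in all 18 libraries of the other groups, with Ddx3y at 5.14 FPKM or more. Counts of genes called in tests that use saline knockout are therefore given with and without those 5 libraries. The tissue expressed proximal tubule markers, for example Lrp2, the endocytic receptor megalin, at 92.9 to 122.9 FPKM in saline wild type. Wild-type Gly libraries 1 and 5 stood apart in some genes, as given where they matter. Library 1 of that group also had the highest FPKM sum of the 24 libraries (539018). Its share of mitochondrial transcripts was the lowest (13.5%). Its share of ribosomal protein transcripts was the highest, at 8.82% beside 4.72 to 5.69% in the rest of Gly wild type.

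In saline wild type the genes spanned a wide range of levels, which FPKM allows to be compared between genes per length. Slc27a2, a very long-chain acyl-CoA synthetase and fatty acid transporter, had the highest level, from 1304 to 1512 FPKM (median 1466). Acadm, the medium-chain acyl-CoA dehydrogenase, came next with 393 to 519 FPKM (median 467), followed by Etfb, Ehhadh, Phyh, Scp2 and Acaa1b with medians between 270.3 and 372 FPKM. At the low end were Decr2, a peroxisomal dienoyl-CoA reductase, at 30.8 to 38.1 FPKM (median 33.96), and Pex11a, a peroxisome division protein, at 29.6 to 34.7 FPKM (median 31.5). Together the genes held 1.31 ± 0.113% of all FPKM in saline wild type (SD, n = 6), of which 0.486% fell to mitochondrial oxidation, 0.436% to uptake and the shuttle and 0.387% to peroxisomal oxidation.

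Promoter windows are shown for 5 members that carry the findings below: Ehhadh with the largest change, Acadm with the largest mitochondrial change, Echs1 with the smallest called mitochondrial change, and the paralogs Acaa1b and Acaa1a, of which the former fell and the latter was not called. The windows are the 250 bases before the annotated start, 5′ to 3′ on the gene's strand, from RefSeq on GRCm38.p6. Capitals mark matches to the hexamer AGGTCA on either strand or to its direct repeat AGGTCANAGGTCA with at most 2 mismatches in the 12 letters compared, the DR1 form that PPARα with RXR is known to bind. The windows lie at chr16:21787835-21788084 (minus strand) for Ehhadh, chr3:153944644-153944893 (minus) for Acadm, chr7:140116422-140116671 (minus) for Echs1, chr9:119157094-119157343 (minus) for Acaa1b and chr9:119341044-119341293 (plus) for Acaa1a.
Ehhadh: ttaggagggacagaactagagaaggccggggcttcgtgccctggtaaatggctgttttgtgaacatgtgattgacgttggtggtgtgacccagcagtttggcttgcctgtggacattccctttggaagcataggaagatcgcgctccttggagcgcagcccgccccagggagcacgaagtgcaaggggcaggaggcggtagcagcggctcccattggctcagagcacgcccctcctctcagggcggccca
Acadm: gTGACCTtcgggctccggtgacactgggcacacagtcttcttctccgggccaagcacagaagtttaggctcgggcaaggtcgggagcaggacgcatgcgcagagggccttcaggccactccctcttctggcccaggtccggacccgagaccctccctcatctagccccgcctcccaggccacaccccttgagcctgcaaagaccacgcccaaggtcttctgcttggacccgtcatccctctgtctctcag
Echs1: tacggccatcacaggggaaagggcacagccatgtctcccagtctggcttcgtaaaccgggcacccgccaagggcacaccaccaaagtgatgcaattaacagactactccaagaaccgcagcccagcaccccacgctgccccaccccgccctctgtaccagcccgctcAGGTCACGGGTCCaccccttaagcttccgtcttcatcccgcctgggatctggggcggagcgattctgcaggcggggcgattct
Acaa1b: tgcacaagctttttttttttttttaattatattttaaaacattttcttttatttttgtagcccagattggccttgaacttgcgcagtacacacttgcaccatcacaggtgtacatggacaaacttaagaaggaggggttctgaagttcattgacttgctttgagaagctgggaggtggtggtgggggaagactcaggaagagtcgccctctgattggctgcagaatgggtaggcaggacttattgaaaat
Acaa1a: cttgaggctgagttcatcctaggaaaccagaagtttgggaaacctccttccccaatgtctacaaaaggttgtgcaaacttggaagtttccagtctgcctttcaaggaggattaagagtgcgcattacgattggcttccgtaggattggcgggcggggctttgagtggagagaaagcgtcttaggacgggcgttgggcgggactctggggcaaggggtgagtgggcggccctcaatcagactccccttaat
The Acadm window holds the hexamer once, at its distal end, on the strand opposite to the gene. The Echs1 window holds the repeat with 2 mismatches, which contains the hexamer. The windows of Ehhadh, Acaa1b and Acaa1a have no match. Those of the paralogs are identical at 137 of 284 aligned columns (48.2%).

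Over the whole set, RefSeq promoter windows of 300 bases (250 before and 50 after the start) were matched for 29 of the 34 genes by symbol. The repeat was found in 4 of the 29 (13.8%: Cd36, Echs1, Etfa and Slc25a20), beside 4.40% of 27025 genes with a window. The hexamer was in 8 of the 29 (27.6%: Acadm, Acadvl, Cd36, Cpt1a, Echs1, Phyh, Scp2 and Slc27a2), beside 18.1% of all. The element TCAAGGTCA of estrogen-related receptors, searched on both strands, was in 0 of the 29 and in 0.466% of all. A match says only that these letters are present. Cd36, Echs1, Etfa and Slc25a20, which hold the repeat, fell by 0.86, 0.30, 0.63 and 0.91 on the log2 scale under Gly in wild type. Among genes whose window lacks it, the differences ran from -2.82 (Ehhadh) to -0.15 (Acaa1a). Sites outside these windows were not searched, and a relation between matches and changes was not tested.

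In wild type, fatty acid oxidation genes fell under Gly almost without exception. By limma on log2(FPKM + 1), with Benjamini-Hochberg adjustment over 13020 features and a call at adjusted p under 0.05, 33 of 34 were lower and none higher: 8 of 8 in uptake and shuttle, 14 of 14 mitochondrial and 11 of 12 peroxisomal. Over all features tested, 13.3% were called lower and 50.2% higher. The median difference of the genes was -0.86 beside 0.26 over all features, with step medians of -1.05 for uptake and shuttle, -0.62 for mitochondrial and -1.05 for peroxisomal genes. In 29 of the 34, each Gly library lay under each saline library, as did 7.6% of all features. Scaling by the median ratio of features, which moves the median over all features to -0.00, gave 34 of 34 lower, beside 28.3% of features lower and 29% higher. In whole kidney, fewer cells of a type and less RNA per cell cannot be told apart.

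Genes of uptake and the carnitine shuttle all fell, by 0.81 (Slc27a2) to 1.52 (Acsl1) on the log2 scale. Acsl1, the long-chain acyl-CoA synthetase, lay at 76.1 to 115.5 FPKM (median 83.1) in saline wild type and 15.9 to 38.8 (median 33.0) in Gly wild type. Its groups did not overlap, and the difference was -1.52 ± 0.24 (SE; adjusted p = 8.19e-06). Cpt2, the carnitine palmitoyltransferase of the inner membrane, went from 79.4 to 97.9 FPKM (median 92.8) to 25.9 to 36.6 (median 30.2). All 6 Gly libraries were far below the saline ones, with a difference of -1.51 ± 0.08 (adjusted p = 2.36e-13). Crot, which moves medium chains from CoA to carnitine in peroxisomes, lay at 100.6 to 156 FPKM (median 141.5) under saline and 44 to 63.3 (median 55.5) under Gly, without overlap (-1.27 ± 0.15, adjusted p = 5.99e-08). Cpt1a, the rate-limiting transferase of the outer membrane, lay at 136.8 to 159 FPKM (median 151) and at 48.4 to 87.1 (median 77.8), again without overlap (-1.09 ± 0.13, adjusted p = 1e-07). Its lowest Gly values were 48.4 and 52.0 FPKM in libraries 1 and 5, against 77.8 to 87.1 in the other 4. Cd36, a fatty acid translocase, lay at 115.7 to 149 FPKM (median 138) and at 54.2 to 84.7 (median 78.3), with a difference of -0.86 ± 0.23 (adjusted p = 0.00245). The carnitine carrier Slc25a20 and the acetyltransferase Crat fell by 0.91 and 1.02.

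**Figure D1:**
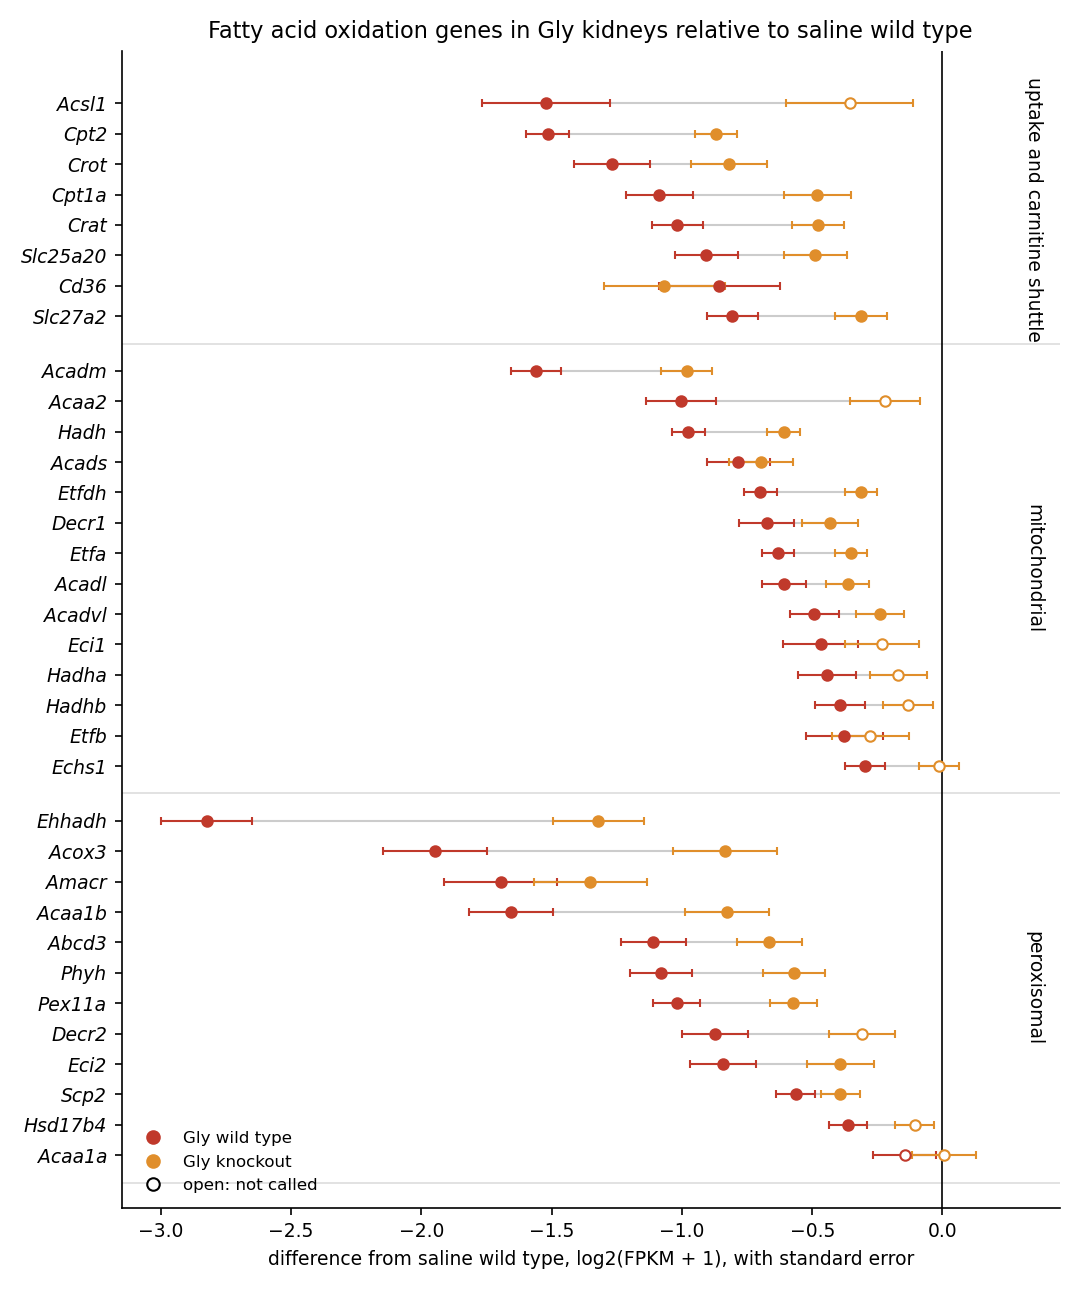
Difference from saline wild type on the log2(FPKM + 1) scale (x axis) for each of the 34 genes (y axis, by step), with standard errors; red is Gly wild type, orange is Gly knockout, filled points were called and open points were not. Red points run from -2.82 (Ehhadh) to -0.15 (Acaa1a), and orange points lie nearer to 0 for each gene but Cd36.

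Among mitochondrial enzymes the fall was largest for Acadm and smallest for Echs1, the short-chain enoyl-CoA hydratase. Acadm, whose level under saline is given above, lay at 132.9 to 182 FPKM (median 157) under Gly, less than each saline library (-1.56 ± 0.10, adjusted p = 2.6e-12). Acaa2, the thiolase that ends the cycle, lay at 128.7 to 148 FPKM (median 142.5) under saline and 56.7 to 87.9 (median 66.8) under Gly. These groups did not overlap, and the difference was -1.003 ± 0.13 (adjusted p = 6.15e-07). Hadh, the medium- and short-chain hydroxyacyl-CoA dehydrogenase, lay at 226 to 260.3 FPKM (median 235) and at 108.8 to 134 (median 121), without overlap (-0.97 ± 0.06, adjusted p = 6.28e-12). Acads, the short-chain acyl-CoA dehydrogenase, lay at 104.8 to 127 FPKM (median 118) and at 58.0 to 98.9 (median 61.9), also without overlap (-0.78 ± 0.12, adjusted p = 5.01e-06). Electron transfer from these dehydrogenases to the respiratory chain runs through Etfa, Etfb and Etfdh, which fell by 0.63, 0.38 and 0.70. The subunits of the trifunctional protein, Hadha and Hadhb, fell by 0.44 and 0.39, with 35.6 to 45.6 FPKM against 52.9 to 61.4 for Hadha. Echs1 fell by 0.30 (adjusted p = 0.0014) from 110.3 to 123 FPKM (median 115) to 80.1 to 116 (median 92.3), and its groups overlapped. Acadvl, Acadl, Eci1 and Decr1 fell by 0.49, 0.61, 0.47 and 0.68. Transcripts of the mitochondrial genome made up 26.9 to 34.3% of FPKM in saline wild type and 13.5 to 23.0% in Gly wild type.

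The peroxisomal set held both the largest fall and the gene that was not called. Ehhadh, the bifunctional hydratase and dehydrogenase of peroxisomes (ENSMUSG00000022853), lay at 296 to 478 FPKM (median 365) under saline and 31.6 to 81.2 (median 52.7) under Gly. Its highest Gly library was well under its lowest saline library (-2.82 ± 0.18, adjusted p = 2.45e-12). Acox3, an oxidase of branched chains, lay at 60.8 to 99.3 FPKM (median 85.1) and at 13.5 to 24.8 (median 24.4), without overlap (-1.95 ± 0.20, adjusted p = 9.87e-09). The lowest were libraries 1 and 5, with 15.4 and 13.5 FPKM. Amacr, the racemase of branched chains, lay at 78.6 to 113.7 FPKM (median 98.2) and at 26.6 to 39.6 (median 28.2), without overlap (-1.70 ± 0.22, adjusted p = 3.15e-07). Acaa1b, a peroxisomal thiolase, lay at 228 to 339 FPKM (median 270.3) and at 65.2 to 124.8 (median 88.1), without overlap (-1.65 ± 0.16, adjusted p = 4.3e-09). Pex11a lay at 12.4 to 18.3 FPKM (median 15.7) under Gly (-1.02 ± 0.09, adjusted p = 9.58e-10). Abcd3, the importer of long and branched chains, and Phyh, the phytanoyl-CoA hydroxylase, fell by 1.11 and 1.08. Decr2, Eci2, Scp2 and Hsd17b4, the bifunctional protein for branched chains, fell by 0.87, 0.84, 0.56 and 0.36.

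**Figure D2:**
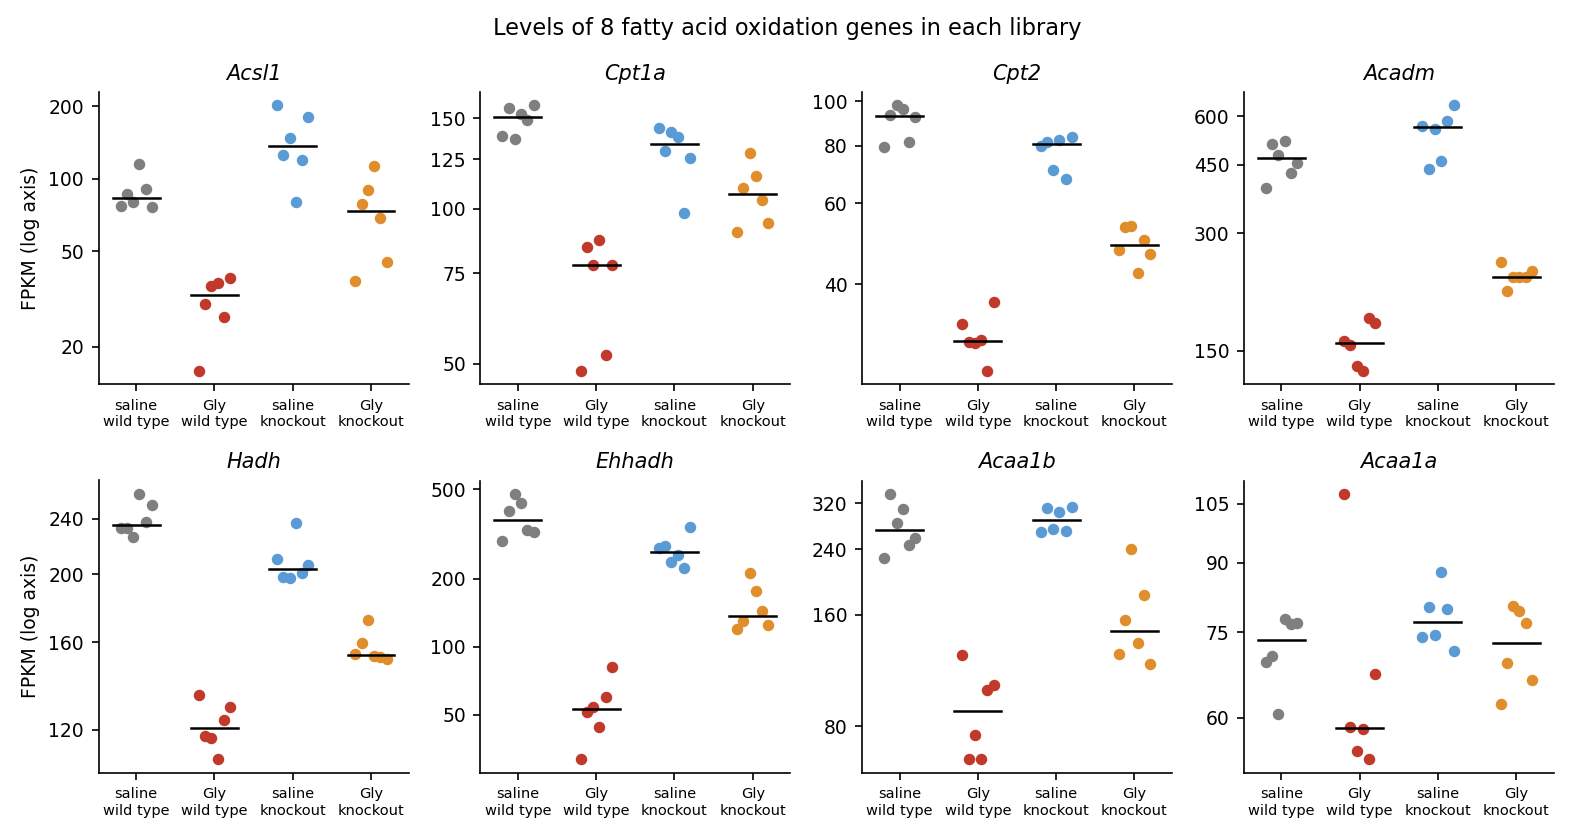
FPKM (y axis, logarithmic) of 8 fatty acid oxidation genes in each of the 24 libraries by group (x axis); points are libraries, in order of replicate number, and black lines are group medians. Ehhadh medians are 365, 52.7, 264 and 138 FPKM from left to right, and Acaa1a in Gly wild type has 1 library at 107.7 FPKM above the other 5.

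The thiolase paralogs parted from each other. Acaa1a (ENSMUSG00000036138) lay at 60.7 to 77.7 FPKM (median 73.5) under saline and 53.8 to 107.7 (median 58.4) under Gly, a difference of -0.15 ± 0.12 (adjusted p = 0.305). Gly library 1 gave the 107.7 FPKM, and the others lay at 53.8 to 67.3. Without that library the difference was -0.29 (adjusted p = 0.00256), and with median-ratio scaling it was -0.46 (adjusted p = 0.00464). Over 36 alternatives its adjusted p ran from 0.00136 to 0.524. The log2 ratio of Acaa1b (ENSMUSG00000010651) to Acaa1a was 1.94 ± 0.26 in saline wild type and 0.42 ± 0.30 in Gly wild type (SD, n = 6 each), without overlap between the groups. The change of -1.52 had p = 0.00217 by an exact permutation test, two-sided, the smallest p that 6 against 6 libraries allow (adjusted p = 0.00866 over 4 ratio tests). The ratio of Cpt1a to Cpt2 rose by 0.45, from 0.73 ± 0.14 to 1.17 ± 0.37 (exact permutation p = 0.026, adjusted p = 0.0346), with overlapping groups. Without any 1 of saline libraries 2, 3 and 4 or Gly libraries 2, 3 and 4, that adjusted p lay between 0.0519 and 0.0722. Acaa1a and Acaa1b share 583 windows of 50 bases in GENCODE M21 transcripts, 34% and 35.5% of their lengths on the same strand, so reads could be split between them. Etfb, Hadhb and Scp2 share 67.3%, 62.4% and 41.4% of their windows with pseudogenes, and Acadvl 24% with Dvl2 on the opposite strand. Of these pseudogenes, Gm45233, which shares windows with Etfb, lay at 0 to 1.78 FPKM. Gm13910 and Gm9108, which share with Hadhb, and Scp2-ps2 were not among the features by symbol. How shared reads were assigned is not known, so the values of all genes with shared windows are uncertain.

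Under Gly, knockout kidneys held more of most of these transcripts than wild-type kidneys. Of the 34 genes, 25 were higher and none lower: 7 of 8 in uptake and shuttle, 9 of 14 mitochondrial and 9 of 12 peroxisomal. Over all features, 8.37% were called higher and 21.4% lower. The median difference was 0.40 beside -0.06 over all features, with 0.52, 0.27 and 0.45 in the 3 steps. All 12 of these libraries expressed Y-linked transcripts. In 11 genes the groups did not overlap, as in 2.4% of all features. With median-ratio scaling 26 genes were higher, beside 13% of features higher and 15.4% lower.

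Ehhadh again moved most, with 119.8 to 212 FPKM (median 138) in Gly knockout, each library above the 31.6 to 81.2 of Gly wild type (1.504 ± 0.18, adjusted p = 2.96e-06). Acsl1 lay at 37.6 to 112.7 FPKM (median 73.7), with its lowest library just inside the highest of Gly wild type (1.17 ± 0.24, adjusted p = 0.00102). Acox3 lay at 36.5 to 61.4 FPKM (median 45.1), above all Gly wild-type libraries (1.11 ± 0.20, adjusted p = 0.000256). Acaa1b lay at 118 to 241 FPKM (median 144.5), and its lowest library, at 118 FPKM, lay under the highest of wild type (0.83 ± 0.16, adjusted p = 0.000537). Acaa2 rose to 88.3 to 171 FPKM (median 124.6), just clear of wild type (0.78 ± 0.13, adjusted p = 0.000165). Cpt2 lay at 42.4 to 53.4 FPKM (median 48.7), Cpt1a at 90.2 to 128 (median 106.9) and Acadm at 213 to 253.8 (median 232). In these last genes each knockout library exceeded each wild-type library under Gly, and the differences were 0.65 ± 0.08, 0.61 ± 0.13 and 0.58 ± 0.10 (adjusted p = 6.92e-06, 0.00114 and 0.000134). Hadh, Crot and Pex11a were higher by 0.37, 0.45 and 0.45.

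The 9 genes without a call were Cd36, Acads, Decr1, Eci1, Etfb, Hadha, Scp2, Amacr and Acaa1a. Cd36 lay at 41.7 to 105.9 FPKM (median 61.0) in Gly knockout, a range that held all of Gly wild type (-0.21 ± 0.23, adjusted p = 0.525). Its values were 105.9, 75.7 and 98.9 FPKM in Gly knockout libraries 1, 5 and 6 and 41.7 to 46.4 in libraries 2, 3 and 4. Havcr1, the tubular injury marker Kim-1, named after its values were seen, was at 157, 106.7 and 207 FPKM in libraries 1, 5 and 6 and at 39.1 to 46.6 in libraries 2, 3 and 4. Amacr lay at 24.02 to 59.2 FPKM (median 39.6) in Gly knockout, which overlapped with the 26.6 to 39.6 of Gly wild type (0.34 ± 0.22, adjusted p = 0.241). Acads lay at 61.2 to 88.4 FPKM (median 69.7) and gave 0.09 ± 0.12 (adjusted p = 0.625). Acaa1a lay at 62.2 to 80.3 FPKM (median 73.0), a difference of 0.15 ± 0.12 (adjusted p = 0.366). The log2 ratio of Acaa1b to Acaa1a was 1.10 ± 0.30 in Gly knockout, higher than in Gly wild type by 0.68 (exact permutation p = 0.00649, adjusted p = 0.013). That of Cpt1a to Cpt2 was 1.12 ± 0.20, a difference of -0.05 (exact permutation p = 0.773, adjusted p = 0.773).

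Measured against saline wild type, Gly knockout kidneys were still lower in 24 of the 34 genes and higher in none: 7 of 8 in uptake and shuttle, 8 of 14 mitochondrial and 9 of 12 peroxisomal. Of all features, 6.72% were lower and 38.9% higher in this comparison, which shares libraries with both comparisons above. The median of the genes was -0.41 beside 0.20 over all features. Groups were apart in 17 genes, as in 3.33% of features. With median-ratio scaling 33 genes were lower, beside 16.7% of features lower and 16.5% higher, and their median was -0.67.

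By these 3 comparisons the genes fall into patterns. Lower in Gly wild type, higher in Gly knockout than there, and still lower in Gly knockout than in saline wild type were 19 genes, among them Ehhadh (-1.32 ± 0.18 against saline wild type, adjusted p = 2.35e-06), Acadm (-0.98 ± 0.10, adjusted p = 3.64e-08), Cpt2 (-0.87 ± 0.08, adjusted p = 1.55e-08) and Cpt1a (-0.48 ± 0.13, adjusted p = 0.00421). Higher in Gly knockout than in Gly wild type and not called against saline wild type were 6: Acsl1, Acaa2, Decr2, Echs1, Hadhb and Hsd17b4. Of these, Echs1 gave -0.01 ± 0.08 (adjusted p = 0.891) and Acsl1 -0.36 ± 0.24 (adjusted p = 0.237). Another 5 were not called between the Gly groups and lower in Gly knockout than in saline wild type: Cd36 (-1.07 ± 0.23, adjusted p = 0.00069), Amacr (-1.35 ± 0.22, adjusted p = 2.59e-05), Acads (-0.70 ± 0.12, adjusted p = 6.89e-05), Decr1 and Scp2. Eci1, Etfb and Hadha were called for Gly knockout against neither group. These patterns depend on the scaling. With median-ratio scaling 26 genes, among them Hadha and the 6 above with Echs1 and Acsl1, were lower in Gly wild type, higher in Gly knockout than there and lower in Gly knockout than in saline wild type, and 7, with Eci1 and Etfb, were lower in both Gly groups without a call between them. Acaa1a, not called in wild type as deposited, was then lower there and called in neither of the other comparisons.

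Summed over the genes, the share of FPKM gives the same order. It was 1.12 to 1.42% (median 1.34%) in saline wild type, 0.695 to 0.809% (median 0.711%) in Gly wild type, 1.09 to 1.26% (median 1.22%) in saline knockout (1.25% in library 4) and 0.915 to 1.10% (median 0.951%) in Gly knockout. The Gly groups did not overlap with each other, and Gly knockout lay under all saline wild-type libraries. Peroxisomal genes held 0.177 ± 0.0083% in Gly wild type and 0.256 ± 0.0297% in Gly knockout (SD, n = 6 each), beside 0.387 ± 0.0385% in saline wild type. Mitochondrial genes held 0.308 ± 0.0250% and 0.380 ± 0.0262%, beside 0.486 ± 0.0329%. No p is given for a sum over chosen genes.

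**Figure D3:**
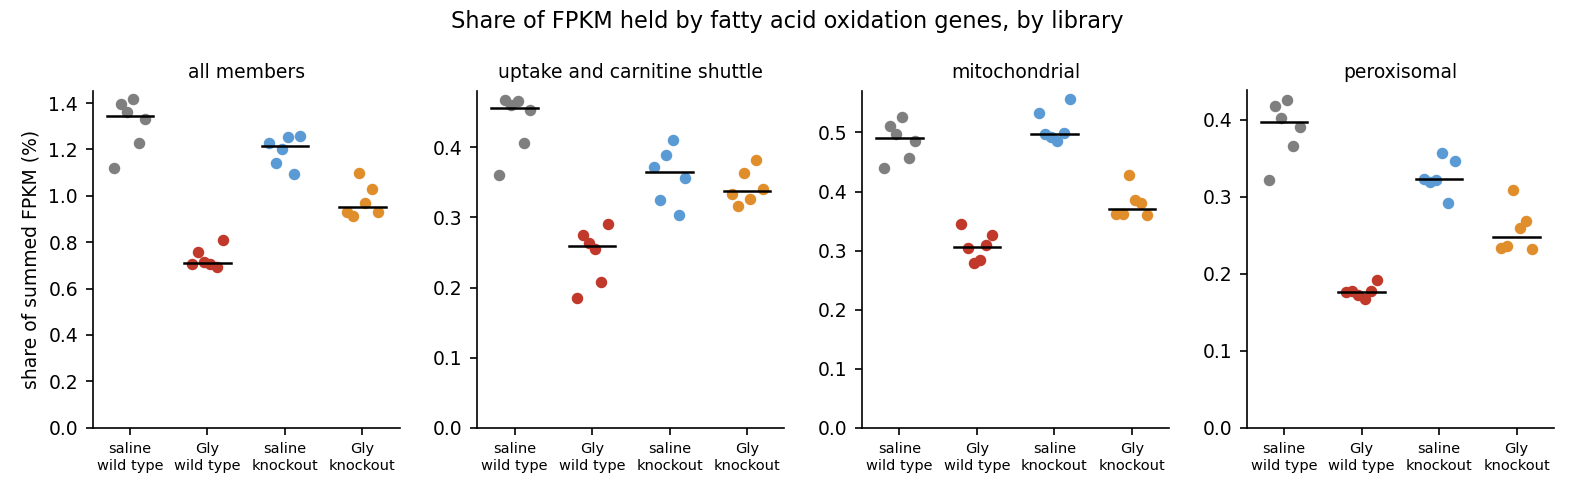
Share of summed FPKM (y axis, percent, from 0) held by all 34 genes and by each step, in the 24 libraries by group (x axis); points are libraries and black lines group medians. For all 34 genes the medians are 1.34% in saline wild type, 0.711% in Gly wild type, 1.22% in saline knockout and 0.951% in Gly knockout.

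Saline knockout is the group in which 5 of 6 libraries lack Y-linked transcripts, and the genes differed between those 5 and library 4. Against saline wild type 7 genes were lower (Cd36, Crot, Acads, Hadh, Acox3, Amacr and Phyh) and 3 higher (Hadha, Hadhb and Acaa2), while 3.67% of all features were lower and 6.92% higher. With median-ratio scaling 12 were lower and 1 higher, beside 5.71% and 4.95% of features. Without the 5 libraries, which leaves 1 saline knockout library assumed to vary like the other groups, none was lower or higher by limma, and 0% of features were called in each direction. At an unadjusted p under 0.05, that comparison gave 0 of the genes and 101 features.

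Amacr showed the split most plainly. It was at 95.9 FPKM in saline knockout library 4 and at 30.3 to 36.2 in the other 5, with 78.6 to 113.7 in saline wild type. Library 4 thus lay within the wild-type range and the other 5 under it. Cd36 was at 123.5 FPKM in library 4 and 39.5 to 65.6 in the others, Crot at 117.7 and 56.5 to 63.2, and Phyh at 320.4 and 183 to 219. In 10 genes, which add Slc27a2, Acads, Etfa, Hadh, Scp2 and Eci2, all 5 libraries lay under all saline wild-type libraries and library 4 lay above those 5. In 5 genes (Acsl1, Hadha, Hadhb, Acaa2 and Decr2) all 5 lay above saline wild type. Acaa2, for example, was at 198.6 to 242 FPKM in the 5, 154.6 in library 4 and 128.7 to 148 in saline wild type. Library 4 was within the saline wild-type range for 28 of the 34 genes. Such counts were made only for these genes and not over all features, so whether the split is particular to them was not tested. Summed FPKM of a list of genes known to be higher in male kidney was 21908 in library 4, 6976 to 9272 in the other 5 and 19020 to 23980 in saline wild type. The Gly groups, whose libraries all had Y-linked transcripts, also had lower sums of that list, 3152 to 9156 in wild type and 1671 to 14090 in knockout. A list known to be higher in female kidney summed to 321 in library 4, 304 to 542 in the other 5 and 259 to 382 in saline wild type. Such sums follow the most abundant genes. By limma, saline knockout against saline wild type, 6 of 7 genes of the female list were higher and none lower (median 2.71). Of the male list, 8 of 9 were lower and none higher (median -4.62). Genotype, and what sets the 5 libraries apart, cannot be told apart in this group.

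**Figure D4:**
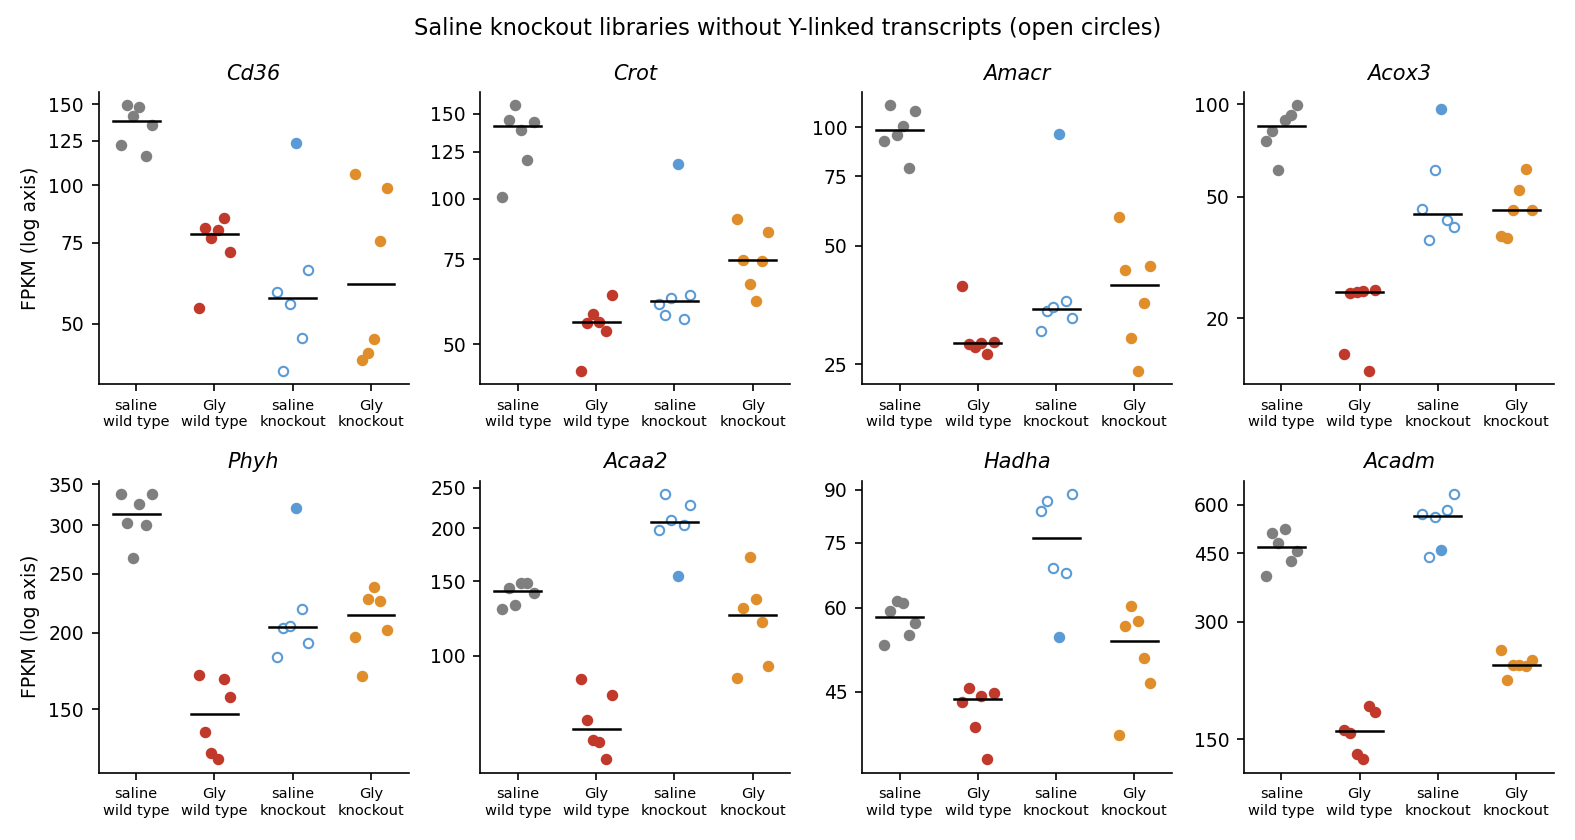
FPKM (y axis, logarithmic) of 8 fatty acid oxidation genes by group (x axis); points are libraries, open circles are saline knockout libraries without Y-linked transcripts, and black lines are group medians. For Amacr library 4 lies at 95.9 FPKM and the open circles at 30.3 to 36.2, while for Acadm library 4 at 459 FPKM lies among the open circles at 440 to 639.9.

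Within knockout, Gly against saline gave 20 genes lower and none higher: 4 of 8 in uptake and shuttle, 11 of 14 mitochondrial and 5 of 12 peroxisomal, beside 5.72% of features lower and 23.7% higher. The median of the genes was -0.32 beside 0.12. Acadm had the largest difference, from 440 to 639.9 FPKM (median 562) to 213 to 253.8 (median 232), with no overlap (-1.20 ± 0.10, adjusted p = 5.71e-09). Without the 5 libraries 5 genes were lower (Cpt2, Acadm, Hadh, Acox3 and Amacr), beside 1.08% of features, and the median was -0.36. With median-ratio scaling 25 were lower, beside 11.9% of features lower and 12.4% higher.

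The response to Gly differed between the genotypes in 19 genes, each with a smaller fall or none in knockout: 6 of 8 in uptake and shuttle, 5 of 14 mitochondrial and 8 of 12 peroxisomal. Over all features, 6.28% had a response that was higher in knockout and 20.3% one that was lower. Ehhadh (1.99 ± 0.25, adjusted p = 1.61e-05), Acox3 (1.81 ± 0.28, adjusted p = 0.000119), Amacr (1.61 ± 0.31, adjusted p = 0.000623) and Crot (1.43 ± 0.21, adjusted p = 5.75e-05) had the largest of these. With median-ratio scaling there were 23, beside 10.7% of features higher and 10.9% lower. Without the 5 libraries, which leaves 1 saline knockout library, none of the 34 was called, beside 0.00768% of features higher by limma. Over the 34 genes the median was 0.42 without the 5 libraries and 0.46 with them, and the median SE was 0.24 and 0.17. Over the 19 genes called with all libraries, 18 still had a value above 0 and the median was 0.49 in place of 0.76. Ehhadh then gave 2.05 (adjusted p = 0.0528), Cpt2 0.77 (adjusted p = 0.11), Cpt1a 0.72 (adjusted p = 0.326) and Pex11a 0.71 (adjusted p = 0.189), while Amacr gave 0.37 (adjusted p = 0.73) and Cd36 -0.09 (adjusted p = 0.956). The value was less than 50% of that with all libraries in 6 genes: Cd36, Crot, Acads, Acox3, Amacr and Phyh. For Amacr and Cd36 the response in knockout was thus near that in wild type once the 5 libraries were left out, with a single saline knockout library behind it.

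Further genes of fatty acid oxidation outside the 34 moved the same way. In wild type under Gly, 22 of 29 tested were lower and 3 higher (median -0.87), beside 13.3% and 50.2% of all features. In Gly knockout against Gly wild type 17 were higher and 1 lower (median 0.37), beside 8.37% and 21.4% of all features. Eci3, an enoyl-CoA isomerase, lay at 130.4 to 179 FPKM (median 152) in saline wild type, 22.0 to 44.5 (median 30.0) in Gly wild type and 54.3 to 74.8 (median 65.9) in Gly knockout. No group overlapped with another among these 3 (-2.28 ± 0.15, adjusted p = 5.58e-12, and 1.10 ± 0.15, adjusted p = 1.35e-05). The dehydrogenases Acad10 and Acad12 fell by 1.04 and 1.01 in wild type. The 3 that rose were Acsl5, Acsl4 and Slc27a4, which activate or take up fatty acids. Acsl5 went from 12.1 to 13.6 FPKM (median 12.9) to 23.2 to 33.1 (median 30.7), opposite to Acsl1.

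Of 25 regulators of the pathway, 9 were lower and 5 higher under Gly in wild type (median -0.16), beside 13.3% of all features lower and 50.2% higher. With median-ratio scaling 16 were lower and 2 higher, beside 28.3% and 29%. In Gly knockout 10 were higher and 3 lower than in Gly wild type, beside 8.37% and 21.4% of features. Ppara lay at 18.1 to 23.9 FPKM (median 19.9) in saline wild type and 2.12 to 15.0 (median 13.0) in Gly wild type, without overlap (-1.13 ± 0.30, adjusted p = 0.00214). Libraries 1 and 5 had 2.12 and 4.76 FPKM and the other 4 had 12.8 to 15.0. In Gly knockout it lay at 10.96 to 20.9 FPKM (median 16.9), higher than in Gly wild type by 0.83 ± 0.30 (adjusted p = 0.0385). Ppargc1a, the coactivator PGC-1α, lay at 9.44 to 11.7 FPKM (median 10.3) and at 5.13 to 13.3 (median 10.3) in the wild-type groups, a difference of -0.16 ± 0.17 (adjusted p = 0.422). It was higher in Gly knockout than in Gly wild type by 0.53 ± 0.17 (adjusted p = 0.0194), with 9.73 to 18.1 FPKM. Libraries 1 and 5 of Gly wild type were its lowest, at 5.13 and 6.97 FPKM. The mitochondrial deacetylase Sirt3 and the coregulator Lpin1 fell by 1.13 and 1.53 under Gly in wild type and were higher in Gly knockout by 0.55 and 0.83. Pprc1, a relative of PGC-1α, and Nrf1, a factor for nuclear genes of mitochondria, rose by 1.11 and 0.53 and were lower in Gly knockout by 0.68 and 0.34.

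Known targets of PPARα outside the 34 fell in 18 of 20 tested under Gly in wild type, with 1 higher (median -1.22). Over all features 13.3% were lower and 50.2% higher (median 0.26). In Gly knockout 13 of the targets were higher and none lower than in Gly wild type (median 0.91). Over all features 8.37% were higher and 21.4% lower there (median -0.06). Pdk4, the kinase that restrains pyruvate use, fell by 2.9, and the catalase gene Cat, Retsat and the fatty acid hydroxylase Cyp4a31 fell by 1.03, 1.67 and 1.79. Pdk4, Cat, Retsat and Cyp4a31 were higher in Gly knockout than in Gly wild type by 0.86, 0.67, 1.03 and 1.29.

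**Figure D5:**
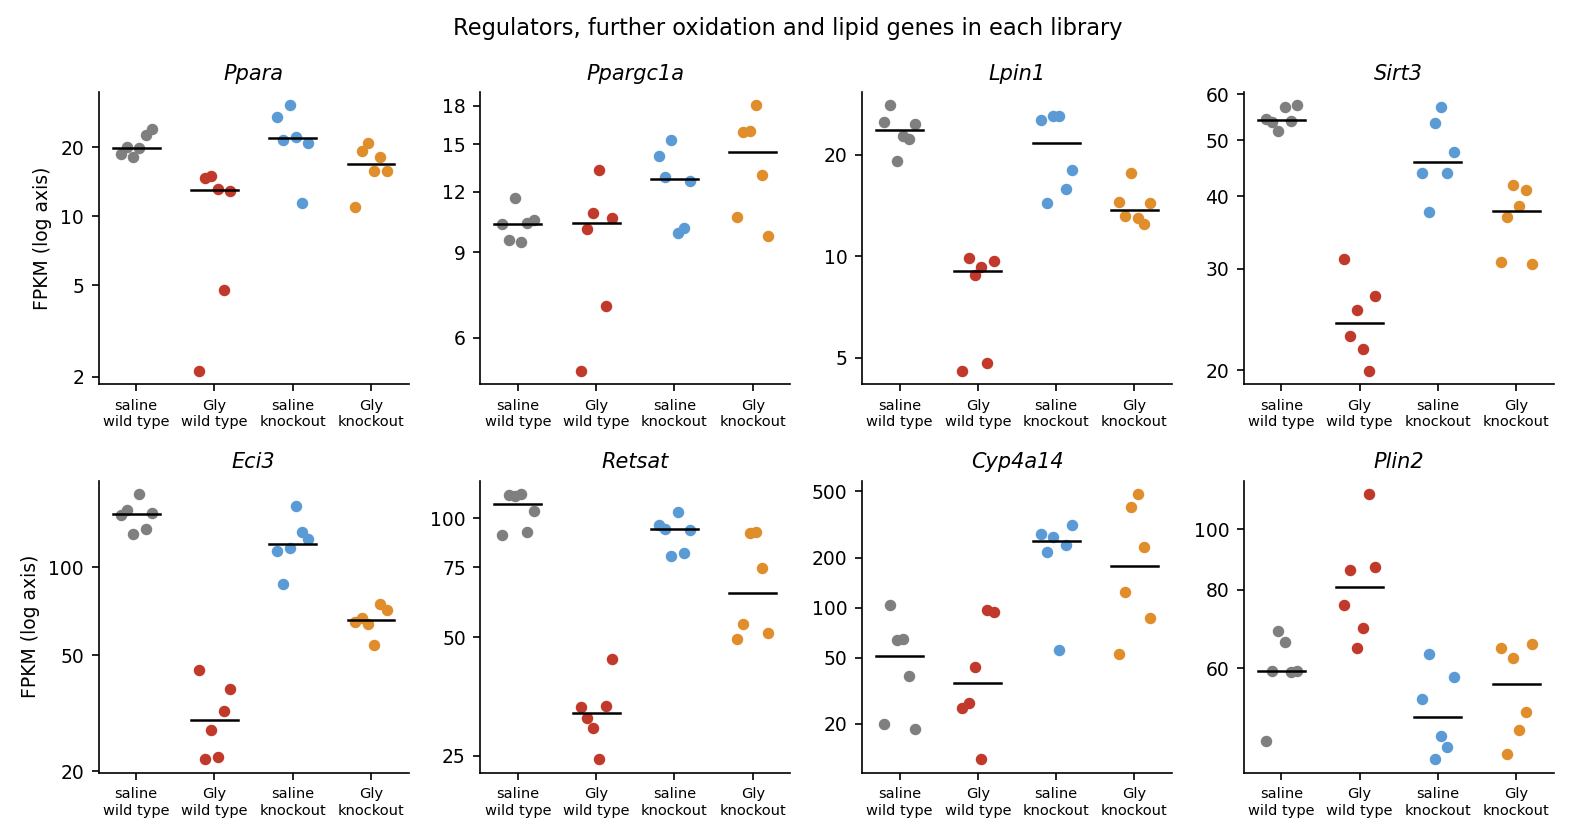
FPKM (y axis, logarithmic) of regulators (Ppara, Ppargc1a, Lpin1, Sirt3), of the oxidation gene Eci3, of the PPARα targets Retsat and Cyp4a14 and of the lipid droplet gene Plin2 in each library by group (x axis); black lines are medians. Ppara in Gly wild type has libraries at 2.12 and 4.76 FPKM under the other 4, and Eci3 medians are 152, 30.0, 120.7 and 65.9 FPKM from left to right.

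Genes of neighbouring pathways moved in both directions or mostly down. Over all features, 13.3% were lower and 50.2% higher under Gly in wild type. In Gly knockout against Gly wild type, 8.37% were higher and 21.4% lower. Of 18 genes for lipid droplets and triglyceride turnover, 9 fell and 5 rose under Gly in wild type: Plin5, Lpl and Dgat2 fell by 1.77, 1.78 and 0.94, while Plin3 rose by 0.76. Plin2, the main coat protein of lipid droplets, lay at 45.9 to 68.8 FPKM (median 59.4) in saline wild type, 64.7 to 113.9 (median 80.9) in Gly wild type and 43.8 to 65.6 (median 56.7) in Gly knockout. It rose by 0.45 ± 0.13 (adjusted p = 0.00469) and was lower in Gly knockout by 0.55 ± 0.13 (adjusted p = 0.00303), with single libraries overlapping. Of 17 genes for fatty acid synthesis and malonyl-CoA, 5 rose (Srebf1 by 0.97, Scd2 by 0.80) and 4 fell (Mlycd by 0.96, Me1 by 1.05), and 1 was higher in Gly knockout. That was Acacb, which makes the malonyl-CoA that restrains Cpt1, at 3.98 to 5.63 FPKM (median 4.5) in saline wild type, 1.57 to 4.005 (median 2.94) in Gly wild type and 3.34 to 6.15 (median 4.32) in Gly knockout. Peroxisome biogenesis genes were lower in 11 of 18 and higher in 2 (median -0.21), with Pxmp4 and Pex16 at -0.97 and -0.58, and 9 were higher in Gly knockout. Enzymes of the TCA cycle were lower in 15 of 20 and higher in 1 (median -0.34), led by Sdha (-0.54) and Suclg2 (-0.57), and 12 were higher in Gly knockout. All 17 genes of ketone body and branched-chain acyl-CoA use were lower (median -0.72), led by Mccc1 (-0.96) and Hibadh (-0.99), and 13 were higher in Gly knockout. With median-ratio scaling, 16 of the peroxisome biogenesis genes and 18 of the TCA genes were lower and none higher. The 5 rises among synthesis genes became 2. By that scaling 28.3% of all features were lower and 29% higher.

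Markers of cell types changed beside these genes, and their part in the results was not tested. Of all features, 13.3% were lower and 50.2% higher under Gly in wild type. Between the Gly groups, 8.37% were higher and 21.4% lower in knockout. Of 25 proximal tubule markers, 19 were lower and none higher under Gly in wild type (median -0.94), and 20 were higher and none lower in Gly knockout (median 0.80). Without the androgen-dependent gene Kap, their summed FPKM was 9524 to 11710 in saline wild type, 4154 to 5677 in Gly wild type, 10200 to 11760 in saline knockout and 7019 to 9315 in Gly knockout. The 5 libraries lacking Y-linked transcripts and library 4 overlapped in that sum. Distal convoluted tubule markers were lower in 4 of 4 under Gly in wild type (median -0.88), and none was called between the Gly groups (median 0.38). Medians under Gly in wild type were 0.05 for thick ascending limb, 0.03 for collecting duct and -0.03 for podocyte markers. Macrophage markers were higher in 12 of 12 under Gly in wild type and lower in 12 of 12 in Gly knockout, with sums of 38.3 to 67.6 FPKM in saline wild type, 291 to 819 in Gly wild type and 152.5 to 449.7 in Gly knockout. Fibroblast markers were higher in 9 of 9, with sums of 35.4 to 45.0, 167 to 385 and 119 to 313 FPKM in the same groups. Fat around the kidney also expresses many of the 34 genes. None of 8 tested adipocyte markers was called in wild type under Gly or between the Gly groups, with 0 at an unadjusted p under 0.05 in each. Between Gly and saline knockout none was called either (median -0.70). There 3 of 8 had an unadjusted p under 0.05 by limma, beside 5192 of all 13020 features. Their sums overlapped between groups: 26.7 to 321 FPKM in saline wild type, 80.8 to 234 in Gly wild type, 32.0 to 562 in saline knockout (255 in library 4) and 36.7 to 227 in Gly knockout. Skeletal and heart muscle markers were near 0, with sums of at most 2.35 FPKM.

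Across the 24 libraries, which share groups and treatment, the genes ran together. The 561 pairs had a median Pearson correlation of 0.745 on the log2(FPKM + 1) scale, from -0.324 to 0.972, with 553 pairs above 0. Without the 5 saline knockout libraries, over 19 libraries, the median was 0.808 and 560 pairs were above 0. The features outside the 34 most like Ehhadh were Cat (0.973), Cyp4a31 (0.971), Slc25a34 (0.965), Retsat (0.964) and Hibadh (0.962). Those most like Cpt1a were Sh3bp5 (0.971), Kbtbd11 (0.969), Kcnj15 (0.957), Lpin1 (0.955) and Peli2 (0.954). Over the 19 libraries the correlations of the same genes were 0.962 to 0.973 with Ehhadh and 0.965 to 0.982 with Cpt1a. These are descriptions over libraries in 4 groups and carry no p.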

How the data were processed

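Kidney RNA was read in 24 libraries of 4 groups, from libraries made with a TruSeq kit on total RNA, per the labels' protocols. The authors deposited FPKM values in 1 table with a column per library. Bowtie 0.12.2 and the builds mm8 and mm9 are named, with no role, in the submitters' processing notes. Which program quantified the reads, on which annotation and with which strand setting, is not given in the sources used here. Groups and replicate numbers came from the sample titles. The labels speak of each mouse but tie no library to an animal, so the p-values cover only the spread between libraries, which may be technical.

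The filter asked for 1 FPKM or more in at least 6 libraries and left 13020 features, each of the 34 genes among them. On log2(FPKM + 1), limma 3.58.1 (R 4.3.3) was run with its trend option, in 1 fit of 24 libraries with a mean per group, two-sided, with Benjamini-Hochberg adjustment over all features and a threshold of 0.05. Log2 differences on this scale understate the change of low features. Ratios of gene pairs were compared by exact permutation of 6 against 6 libraries, 4 tests in all. The fit was tested on simulated data. Promoters were from RefSeq (GRCm38.p6) and transcripts for shared windows from GENCODE M21. Their builds differ from those named by the submitters, so no coordinate was joined to an FPKM value. No 2 libraries held identical values.

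The members and gene lists were chosen with earlier results of these data known. Named in full were, per step, the 4 genes with the largest change in wild type and any not called, a preset group of 8, and of each further list up to 4 genes with the smallest p plus 6 preset genes. Values of some genes that this rule picks are not reported here. Alternatives were another pseudocount (0.1), other filters, scalings and designs, array weights and leaving out libraries.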

Additional observations from a re-analysis of the deposited data

Results flagged for a closer look

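Single libraries stood apart from the other 5 of their group, by Dixon's criterion at its 95% level, for 13 of the 136 sets of 6 values examined, where chance alone gives about 1 in 20. Saline knockout library 4, the one of its group with Y-linked transcripts, was the high one for Cd36 (123.5 FPKM), Crot (117.7), Hadh (236.6), Amacr (95.87) and Phyh (320.4). Wild-type Gly library 1 was high for Etfb (526.9 FPKM), Eci1 (88.98), Acaa1a (107.7) and Amacr (39.55), while it held the lowest Ppara of its group. This whole library was also extreme in FPKM sum and in its shares of ribosomal protein and mitochondrial transcripts, as given above. Wild-type Gly library 5 was low for Decr2 (13.74 FPKM). Gly knockout library 3 was high for Decr1 (62.64 FPKM) and Pex11a (27.85), and saline wild-type library 4 for Acsl1 (115.5).

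The response to Gly differed between genotypes, by the interaction term in limma, for 19 genes. Over all features it was higher in knockout for 6.28% and lower for 20.3%. On the log2 scale the response in knockout exceeded that in wild type by 0.93 for Cd36, 0.79 for Slc27a2, 0.82 for Cpt1a, 0.86 for Cpt2, 0.58 for Crat and 1.43 for Crot. Among mitochondrial genes it did so by 0.38 for Acadl, 0.49 for Acads, 0.45 for Etfa, 0.48 for Etfdh and 0.57 for Hadh. Among peroxisomal genes the values were 1.81 for Acox3, 1.99 for Ehhadh, 0.76 for Acaa1b, 0.38 for Scp2, 1.61 for Amacr, 1.03 for Phyh, 0.76 for Eci2 and 0.63 for Pex11a. Each rests on saline knockout, and without its 5 libraries lacking Y-linked transcripts none was called, while 18 of the 19 values stayed above 0, with a median of 0.49 in place of 0.76 and a median SE of 0.22 in place of 0.17. Ehhadh was then 2.05, Cpt2 0.77, Cpt1a 0.72, Acaa1b 0.69, Eci2 0.63 and Pex11a 0.71, and Amacr 0.37, Acads 0.09 and Cd36 -0.09.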

How the results depend on the processing

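The sequencing depth is unknown, so precision comes only from the spread of 6 libraries a group, and low features are understated. Counts of genes lower in Gly wild type, higher in Gly knockout and lower in Gly knockout than saline wild type stayed on the same side and within 1.5 times their values under the alternatives run, and the sign of each median held. Without 1 library at a time those counts were 32 to 34, 22 to 30 and 22 to 26.

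Results with saline knockout moved. Without the 5 libraries lacking Y-linked transcripts, genes lower under Gly in knockout numbered 5, genes lower and higher in saline knockout 0 and 0, and genes with a differing response 0. Genes lower in saline knockout numbered 12 with median-ratio scaling, 14 with only the groups compared, 14 with array weights and 13 without wild-type Gly libraries 1 and 5, an alternative chosen after seeing the data. Genes higher there numbered 1, 5 and 9 under the first 3 of these. Without 1 library at a time, genes lower ranged from 4 (without saline wild-type library 6 or saline knockout library 1, 5 or 6) to 11 (without wild-type Gly library 1), genes higher from 2 to 5 (without saline knockout library 4), genes lower under Gly in knockout from 17 to 23 and genes with a differing response from 17 to 21. The causes were not tested.

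The change of the Cpt1a to Cpt2 ratio in wild type ranged from 0.38 to 0.57 without 1 library at a time and that between the Gly groups from -0.17 to 0.02, with the sign reversed without wild-type Gly library 2 (0.0138) or 4 (0.0207). The Acaa1b to Acaa1a ratio ranged from -1.61 to -1.45 and from 0.58 to 0.78. Acads between the Gly groups reversed to -0.0232 (adjusted p = 0.912) without Gly knockout libraries 1 and 6, chosen after seeing the data. Over its alternatives the adjusted p ran from 0.144 to 0.912.

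With the replicate number as a replicate block, 33 genes were lower in Gly wild type, 23 higher in Gly knockout and 23 lower in Gly knockout than saline wild type. Same-numbered libraries did not deviate together (median correlation -0.02 over 36 pairs), and 1 of 24 correlated best with its own number. The labels do not say what a shared number stands for, and correlations cannot show whether samples were paired by design.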

Other observations

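Within Gly groups the genes did not favour the same library throughout. Gly knockout library 3 held the highest value of its group for 20 of the 34 genes, and library 2 the lowest for 12 and library 1 for 11. Library 3 also held the highest Pdk4 (37.0 FPKM) of Gly knockout. In Gly wild type, library 1 held the highest value for 17 of the genes and the lowest for 7, among them Cpt1a, Cd36, Crot, Acsl1 and Ehhadh.

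Cyp4a14, a fatty acid omega-hydroxylase and PPARα target, took another course than most of the pathway. It lay at 18.6 to 103.5 FPKM in saline wild type and 12.2 to 97.0 in Gly wild type, a difference of -0.14 ± 0.57 (SE; adjusted p = 0.839 by limma). In saline knockout, library 4 had 55.6 FPKM and the 5 libraries lacking Y-linked transcripts had 215.8 to 313.7. In Gly knockout, where all libraries express Y-linked transcripts, it ran from 52.3 to 483.8 FPKM, higher than in Gly wild type by 2.12 ± 0.57 (adjusted p = 0.00709). It was named after its values were seen.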
